A study of Mus musculus with 24 samples.

Results

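Liver messenger RNA of Ercc1 d/- mice was compared with that of Ercc1 +/+ mice after both had been kept on 30% less food, up to an age of 16 weeks. The comparison takes the 4 libraries labelled as restricted mutant and the 4 labelled as restricted wild type, which are 8 of the 24 libraries of the series. All 8 came from male F1 hybrids of C57BL6J and FVBN that lived in single housing. Restriction began at 7 weeks with 10% and had been raised to 30% by 9 weeks. The restricted mutant received 1.6 g of food a day and the restricted wild type 2.1 g, against a mean free intake of 2.3 g in Ercc1 d/- mice and 3.0 g in wild-type mice, so the diets were matched as a percentage and not in grams. On the last day the mice were not fed until the liver had been taken. The freely fed groups of the same age, with 4 mutant and 4 wild-type libraries and no library in common with the restricted ones, were used to ask whether the genotype difference changed with diet. The d and null alleles are germline alleles, so every cell type of the liver carries them. The labels do not say that each library is a separate animal. The p-values therefore measure a spread between libraries, which may be technical in part. For edgeR's p-values that spread was estimated over all 24 libraries, including groups of other ages.

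ERCC1 binds XPF, the product of Ercc4, to form an endonuclease that cuts damaged DNA in nucleotide excision repair and in the repair of crosslinks between strands. Without it bulky lesions persist, stall RNA polymerase and activate p53, and mice with a truncated and a null allele age early. Restriction of food is known to lengthen their life. In liver, a shortage of food raises the breakdown of amino acids, the making of glucose and ketones and the oxidation of fatty acids, and lowers lipid synthesis, so this comparison asks what the repair defect does in a liver that is already adapted to little food.

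Total counts ran from 13269792 to 16976793 in the mutant libraries and from 14239378 to 19990088 in the wild-type libraries. The top gene was albumin, with 8.14 to 9.98% of counts in the mutant and 8.88 to 12.0% in the wild type. Transcripts of mitochondrial DNA made up 13.5 to 15% in the mutant and 12.5 to 16.9% in the wild type. Mutant replicates 3 and 4 were more alike than any other pair of libraries (Pearson r 0.989 across genes, chi-square per degree of freedom 8.60, against at least 30.8 for other pairs of a group). They differed by more than counting noise and were kept as separate libraries. Levels below are CPM, counts scaled to a library of 1000000 counts, in the order of replicates 1 to 4. Log2 fold changes are mutant over wild type, ± standard error, and a gene is called when edgeR's adjusted p over all 12690 genes tested was under 0.05.

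Ercc1 itself (chromosome 7, 19344778 to 19356524 on GRCm38) stood at 1.63, 1.29, 1.98 and 1.30 CPM in the mutant, against 4.46, 2.15, 3.66 and 3.80 CPM in the wild type (log2 fold change -1.18 ± 0.27, adjusted p = 0.0033 by edgeR). Every mutant library lay below every wild-type library, and the lowest wild-type library, replicate 2, lay close to the highest mutant one. Counts per gene include reads from the mutant alleles, so the residual level does not measure intact transcript. Ercc4, which encodes the partner XPF, averaged 9.78 ± 1.19 CPM in the mutant and 8.74 ± 2.65 CPM in the wild type (SD, n = 4 each) and was not called. Among 23 genes of excision repair 2 were higher and 1, Ercc1 itself, was lower, against 9.58% and 8.7% of all genes. Neither count exceeded those shares. The helicase gene Ercc3 was 1 of the risers (log2 fold change 0.53 ± 0.12, adjusted p = 0.00303 by edgeR). That call was lost when only the 8 restricted libraries were fitted.

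Of 12690 genes tested, 2320 were called (18.3%), 1216 higher (9.58%) and 1104 lower (8.7%) in the restricted mutant, with a median log2 fold change of -0.03 over all genes. Of the calls 998 exceeded 1 on the log2 scale in either direction, and the mutant and wild-type libraries did not overlap in 2002 genes (15.8%). Macrophage markers, interferon-stimulated genes, cell cycle genes and enzymes of amino acid breakdown were called mainly as higher. Chaperones of the endoplasmic reticulum (ER) and the cytosol, genes of fatty acid oxidation, secreted plasma proteins and parts of the clock were called mainly as lower. The lists behind these statements had been drawn up with earlier results of these data known, so their counts describe and are not independent evidence. Each list count below is to be read beside the shares over all genes, 9.58% higher and 8.7% lower. On free feeding those shares were 5.1% and 4.85%. With a fit to the 8 restricted libraries alone, 877 genes were called, and genes below that lost their call in that fit are named as such in their paragraph.

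**Figure D1:**
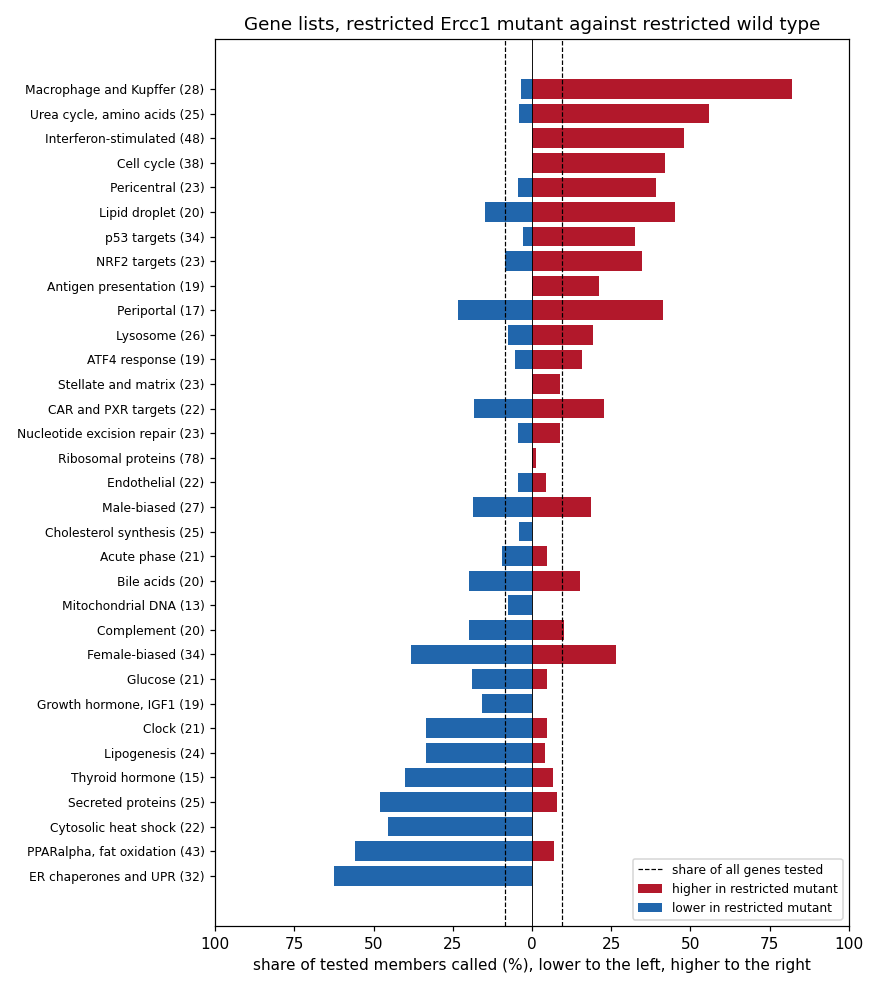
Share of the tested members of each gene list that was called higher (red, right) or lower (blue, left) in the restricted mutant, in percent, with the number of tested members in brackets; dashed lines mark the shares over all genes tested, 9.58% higher and 8.7% lower. Of the lists drawn, macrophage and Kupffer cell markers extend farthest to the right, with 23 of 28 members, and ER chaperones farthest to the left, with 20 of 32.

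The largest rises were in genes that are almost silent in wild-type liver. They were picked among genes whose groups did not overlap, so that separation is a condition of the choice. Lrtm2, a membrane protein with leucine-rich repeats, drew 457 counts in the mutant libraries together and 2 in the wild type, a ratio of 222 (95% counting interval 61.1 to 1839). Tinag, a basement membrane protein of the kidney, drew 228 in the mutant and 1 in the wild type, and Tceal5 drew 225 in the mutant and 2 in the wild type. Gpx6, a glutathione peroxidase known from the olfactory epithelium, stood at 14.5, 15, 22.2 and 12.6 CPM in the mutant, against 0.0474, 0.215, 0.128 and 0.507 CPM in the wild type (log2 fold change 6.18 ± 0.46, adjusted p = 1.1e-08 by edgeR). Ttyh1, of the tweety family of membrane channels, stood at 3.85, 4.99, 6.07 and 2.33 CPM in the mutant, against 0.142, 0.143, 0.0642 and 0.0634 CPM in the wild type (log2 fold change 5.26 ± 0.58, adjusted p = 1.05e-06 by edgeR). For both genes all mutant libraries lay far above all wild-type libraries. Igsf23, an immunoglobulin-family gene, averaged 5.67 ± 1.21 CPM in the mutant and 0.109 ± 0.0887 CPM in the wild type (SD, n = 4 each). Tff3, a secreted trefoil peptide, averaged 2.01 ± 0.713 CPM in the mutant and 0.0554 ± 0.0653 CPM in the wild type (SD, n = 4 each). Dnah1, an axonemal dynein chain, was highest in mutant replicates 3 and 4, with 1.05, 1.34, 15.9 and 13.5 CPM in the mutant, against 0.0474, 0.358, 0 and 0 CPM in the wild type (log2 fold change 6.32 ± 1.05, adjusted p = 0.000208 by edgeR). Lrtm2 was likewise highest in those 2 libraries. Both wild-type counts of Lrtm2 were in replicate 3, without which its log2 fold change was 9.79 (7.51 with all libraries), and that of Tinag was 8.75 without wild-type replicate 1 (7.23 with all). Without wild-type replicate 2 the log2 fold change of Dnah1 was 8.22, and without wild-type replicate 4 that of Gpx6 was 6.98.

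The largest falls included membrane receptors, a transporter and secreted proteins. These genes, too, were picked among those whose groups did not overlap. Nrp2, a co-receptor for semaphorins and vascular growth factors, stood at 2.10, 3.06, 2.98 and 2.59 CPM in the mutant, against 28.2, 22.8, 22.6 and 28.8 CPM in the wild type (log2 fold change -3.25 ± 0.28, adjusted p = 3.67e-08 by edgeR). Ephb6, a kinase-dead ephrin receptor, stood at 0.350, 0, 0.175 and 0.324 CPM in the mutant, against 6.55, 3.80, 3.27 and 1.96 CPM in the wild type (log2 fold change -4.19 ± 0.54, adjusted p = 6.91e-06 by edgeR). The groups were wide apart for both genes, and Nrp2 also varied little within each. Slc17a8, the vesicular glutamate transporter VGLUT3, fell to 3.79, 3.59, 2.10 and 4.73 CPM in the mutant, against 48.3, 54.7, 30.8 and 7.92 CPM in the wild type (log2 fold change -3.32 ± 0.41, adjusted p = 7.67e-06 by edgeR), with wild-type replicate 4 the lowest of its group. Serpina12, the secreted serpin vaspin, averaged 1.58 ± 1.31 CPM in the mutant and 15.2 ± 2.66 CPM in the wild type (SD, n = 4 each). Wfdc2, a small secreted protein with a whey acidic protein domain, averaged 0.219 ± 0.167 in the mutant against 2.74 ± 1.13 CPM in the wild type. Their log2 fold changes were -3.26 ± 0.35 and -3.60 ± 0.45 (edgeR adjusted p = 1.5e-06 and 5.32e-06), and moved to -4.01 for Serpina12 without mutant replicate 1 and to -4.25 for Wfdc2 without mutant replicate 3.

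Several enzymes that break down amino acids were higher in the restricted mutant. In a list of 25 genes of the urea cycle and amino acid catabolism, 14 were higher, against 9.58% of all genes, and 1 was lower, against 8.7% of all genes, with a median log2 fold change of 0.58. These genes turn the nitrogen of amino acids into urea and their carbon into glucose precursors, and they are among the most abundant liver transcripts. Their summed level was 35308 to 46594 CPM in the mutant libraries, above the 22026 to 27118 CPM of the wild type. Cps1, carbamoyl phosphate synthetase, which commits ammonia to the urea cycle, stood at 7739, 6988, 7128 and 6619.7 CPM in the mutant, against 3725, 4226, 4049 and 3766 CPM in the wild type (log2 fold change 0.85 ± 0.14, adjusted p = 0.000112 by edgeR). All 4 mutant libraries lay above all 4 wild-type libraries, and by a similar step. Arg1, the arginase that releases urea, averaged 1992 ± 440.5 CPM in the mutant and 1207 ± 72.3 CPM in the wild type (SD, n = 4 each; log2 fold change 0.72 ± 0.13, adjusted p = 0.000393 by edgeR). Otc, ornithine transcarbamylase, was lower at 238 ± 30.3 in the mutant against 306 ± 32.2 CPM in the wild type (log2 fold change -0.36 ± 0.12, adjusted p = 0.0333 by edgeR). Its call was lost without wild-type replicate 2 or 4, without mutant replicate 1, 2 or 4, with no filter on low counts and in the fit to the 8 libraries.

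The steepest rises of the list were in enzymes of single amino acids. Cth, which makes cysteine from cystathionine, stood at 845, 561, 551 and 463 CPM in the mutant, against 175, 127, 169 and 82.1 CPM in the wild type (log2 fold change 2.13 ± 0.21, adjusted p = 1.3e-07 by edgeR). Aass, the first enzyme of lysine breakdown, stood at 1508, 1179, 1100.1 and 887 CPM in the mutant, against 358, 432, 362 and 440.0 CPM in the wild type (log2 fold change 1.55 ± 0.15, adjusted p = 1.22e-07 by edgeR). Got1, the cytosolic aspartate aminotransferase, stood at 1831, 1276, 724 and 782 CPM in the mutant, against 390.2, 232, 145 and 329 CPM in the wild type (log2 fold change 2.07 ± 0.34, adjusted p = 0.000188 by edgeR). In all of these genes the groups were separate, and mutant replicate 1 was the highest library for each. Oat, which turns ornithine into glutamate semialdehyde, averaged 1052 ± 166 CPM in the mutant and 395 ± 58.2 CPM in the wild type (SD, n = 4 each; log2 fold change 1.41 ± 0.20, adjusted p = 2.11e-05 by edgeR). Agxt, which detoxifies glyoxylate, averaged 339 ± 161 in the mutant against 113 ± 41.0 CPM in the wild type (log2 fold change 1.58 ± 0.24, adjusted p = 5.57e-05 by edgeR). Mutant replicates 1 and 2 lay above replicates 3 and 4 for Agxt, as for Got1. Gpt, the alanine aminotransferase, averaged 569 ± 67.1 in the mutant against 284 ± 94.3 CPM in the wild type (log2 fold change 1.0 ± 0.19, adjusted p = 0.000466 by edgeR). Mat1a, which makes the methyl donor S-adenosylmethionine, rose by 0.77 ± 0.18 on the log2 scale (edgeR adjusted p = 0.0034). The calls of Asl, which releases arginine in the cycle (0.59 ± 0.19), of Tdo2, which opens tryptophan breakdown (0.58 ± 0.18), and of Sds, the serine dehydratase (1.27 ± 0.36), were lost without mutant replicate 1, at 0.40, 0.41 and 0.91. All of them were also lost without wild-type replicate 4 and in the fit to the 8 libraries, and those of Asl and Tdo2 without wild-type replicate 3. The count of rises in the list was 11 to 14 when any single restricted library was left out and 10 in the fit to the 8 libraries.

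**Figure D2:**
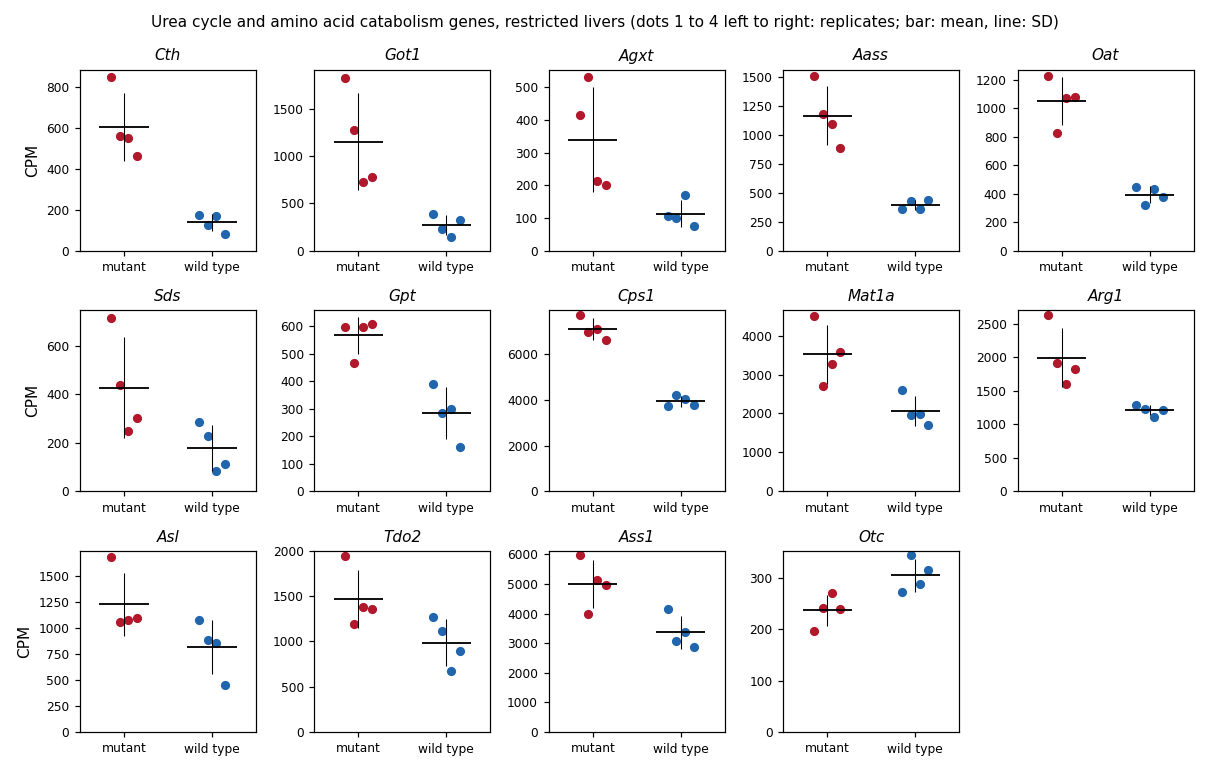
CPM of called genes of the urea cycle and amino acid breakdown list in restricted mutant (red) and restricted wild-type (blue) livers, with replicates 1 to 4 from left to right in each group, the mean as a bar and the SD as a line. The mutant mean lies above the wild-type mean for every gene drawn except Otc.

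For several of these enzymes the genotype effect itself depended on diet. On free feeding 2 of the 25 genes were higher, against 5.1% of all genes, and 1 was lower, against 4.85% of all genes, with a median of 0.04. A test of the difference between the restricted and the freely fed effect called 6 of the 25, all more positive under restriction, against 0.906% of all genes. Aass stood at 403 ± 45.4 CPM in the freely fed mutant and 436 ± 71.8 CPM in the freely fed wild type (SD, n = 4 each), a freely fed fold of -0.11 ± 0.15, and the difference of the effects was 1.66 ± 0.21, adjusted p = 5.15e-05 by edgeR. For Cth the difference was 1.78 ± 0.28, adjusted p = 0.000863 by edgeR. Those calls held when any of the 16 libraries of the 4 groups was left out. Oat and Arg1 also passed, with differences of 1.07 ± 0.27 and 0.76 ± 0.19, but lost the call in 12 and 9 of the 16 leave-one-out fits. Etnppl, which breaks down phosphoethanolamine and stands in the periportal list, had opposite directions. Under restriction it stood at 648, 430.3, 363 and 243 CPM in the mutant, against 161, 77.8, 99.9 and 75.6 CPM in the wild type (log2 fold change 2.02 ± 0.33, adjusted p = 0.000164 by edgeR). The freely fed groups averaged 59.2 ± 29.2 CPM in the freely fed mutant and 139 ± 40.9 CPM in the freely fed wild type (log2 fold change -1.23 ± 0.32, adjusted p = 0.0159 by edgeR), a difference of 3.25 ± 0.46, adjusted p = 0.000359 by edgeR. The highest restricted wild-type library lay below the lowest restricted mutant one.

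Many chaperones of the ER were lower in the restricted mutant. These proteins fold secreted proteins, and the unfolded protein response (UPR) raises them through the transcription factors ATF6 and XBP1 when unfolded protein builds up. Of 32 genes of the list 20 were lower and 0 higher (8.7% and 9.58% of all genes), with a median log2 fold change of -0.80. The DNA element through which ATF6 acts, the ER stress response element (CCAAT and CCACG with 9 unspecified bases between them, searched on both strands), was found in the promoters of 37 of 27025 genes (0.137%). It occurred in those of 10 of the 18 called members that had a promoter and 0 of 9 that were not called. A match describes these letters only and does not show binding. The promoters of 3 members with a match are shown because their genes fell together, from 250 bases before to 50 after the annotated start, in RefSeq on GRCm38.p6: Hspa5 at chr2:34771840-34772139 on the plus strand, Hsp90b1 at chr10:86705395-86705694 on the minus strand and Creld2 at chr15:88819396-88819695 on the plus strand. Capitals mark the element, which reads as its reverse complement where it lies on the other strand, and Hsp90b1 holds 2 copies.
Hspa5: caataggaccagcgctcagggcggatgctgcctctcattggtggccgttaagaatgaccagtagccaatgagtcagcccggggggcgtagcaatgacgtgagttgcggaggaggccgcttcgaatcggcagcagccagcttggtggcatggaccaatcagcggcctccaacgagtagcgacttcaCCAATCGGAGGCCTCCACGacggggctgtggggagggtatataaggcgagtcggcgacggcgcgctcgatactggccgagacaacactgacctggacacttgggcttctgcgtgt
Hsp90b1: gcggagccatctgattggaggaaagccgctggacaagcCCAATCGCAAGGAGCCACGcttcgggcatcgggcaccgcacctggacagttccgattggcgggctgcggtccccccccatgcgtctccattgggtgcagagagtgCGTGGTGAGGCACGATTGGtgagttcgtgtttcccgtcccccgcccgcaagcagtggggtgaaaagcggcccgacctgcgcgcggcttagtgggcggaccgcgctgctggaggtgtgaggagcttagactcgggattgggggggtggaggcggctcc
Creld2: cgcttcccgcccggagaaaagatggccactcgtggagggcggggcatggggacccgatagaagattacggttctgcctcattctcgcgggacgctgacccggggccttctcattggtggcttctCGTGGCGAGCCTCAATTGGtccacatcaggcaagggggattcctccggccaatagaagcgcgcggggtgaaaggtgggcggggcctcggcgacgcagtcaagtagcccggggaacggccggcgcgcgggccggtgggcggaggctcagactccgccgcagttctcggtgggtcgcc

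The UPR genes also varied widely among the wild-type libraries. Hspa5, the chaperone BiP, stood at 415, 531, 983 and 661 CPM in the mutant, against 1005, 1179, 2774 and 2875 CPM in the wild type (log2 fold change -1.60 ± 0.32, adjusted p = 0.00117 by edgeR). Creld2, a secreted ER protein that is a sharp marker of the response, stood at 11.8, 18.7, 43.6 and 29.1 CPM in the mutant, against 57.3, 46.4, 299 and 113 CPM in the wild type (log2 fold change -2.32 ± 0.53, adjusted p = 0.00433 by edgeR). Every mutant library lay below every wild-type library for both genes, but wild-type replicates 3 and 4 were well above replicates 1 and 2. Hsp90b1, the ER paralogue of HSP90, averaged 625 ± 153 in the mutant against 1553 ± 783 CPM in the wild type (SD, n = 4 each; log2 fold change -1.31 ± 0.26, adjusted p = 0.00101 by edgeR). Pdia4, a disulfide isomerase, stood at 59.5, 76.7, 148 and 118 CPM in the mutant, against 152, 199.8, 599 and 360.2 CPM in the wild type (log2 fold change -1.70 ± 0.32, adjusted p = 0.000725 by edgeR). Its groups were separate, with wild-type replicate 3 the highest. Ero1b, which oxidises such isomerases, averaged 18.4 ± 4.43 in the mutant against 51.0 ± 26.5 CPM in the wild type (log2 fold change -1.47 ± 0.26, adjusted p = 0.000265 by edgeR). Ern1, the sensor kinase IRE1, averaged 26.6 ± 3.07 in the mutant against 53 ± 11.8 CPM in the wild type (log2 fold change -1.0 ± 0.26, adjusted p = 0.00881 by edgeR). Without wild-type replicate 3 the list had 13 lower members instead of 20, and the log2 fold change of Creld2 was -1.49. Among the members that then lost their call, the log2 fold change was -0.44 for Calr, an ER lectin (-0.76 ± 0.22 with all libraries), -0.39 for Pdia6 (-0.78 ± 0.23), -0.89 for Sdf2l1 (-1.92 ± 0.53) and -0.63 for Syvn1, an ER ubiquitin ligase (-1.33 ± 0.34). Calr, Pdia6 and Sdf2l1 also missed the threshold without mutant replicate 2, and Calr without mutant replicate 1. In the fit to the 8 restricted libraries 6 members were lower, and the calls of Creld2, Calr, Pdia6, Sdf2l1 and Syvn1 were lost. On free feeding 0 of the 32 genes were called in either direction, with a median of 0.03, and the difference between the restricted and freely fed effects was called for 0 of them.

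Some chaperones of the cytosol were lower too. Of 22 heat shock genes 10 were lower and 0 higher, with a median of -0.80 on the log2 scale, and the count stayed between 9 and 10 when single libraries were left out and was 8 in the fit to the 8 libraries. Hsp90aa1, the inducible form of HSP90, stood at 272, 247, 561 and 466 CPM in the mutant, against 645, 921, 904 and 631 CPM in the wild type (log2 fold change -1.0 ± 0.25, adjusted p = 0.00625 by edgeR). Stip1, the co-chaperone that hands clients from HSP70 to HSP90, stood at 65.1, 60.2, 118 and 104 CPM in the mutant, against 156, 180.3, 225 and 150.4 CPM in the wild type (log2 fold change -1.04 ± 0.19, adjusted p = 0.00039 by edgeR). Hsph1, a nucleotide exchange factor of HSP70, stood at 49.6, 47.3, 127 and 111 CPM in the mutant, against 170.3, 285, 193 and 198 CPM in the wild type (log2 fold change -1.34 ± 0.31, adjusted p = 0.0043 by edgeR). The groups did not overlap for any of these genes, and mutant replicates 1 and 2 were the lowest of all 8 libraries in each. Fkbp4, a co-chaperone of steroid receptors, averaged 151 ± 56.4 CPM in the mutant and 328 ± 68.6 CPM in the wild type (SD, n = 4 each; log2 fold change -1.12 ± 0.20, adjusted p = 0.000307 by edgeR). Ahsa1, the activator of the HSP90 ATPase, averaged 94.6 ± 11.7 in the mutant against 146 ± 18.7 CPM in the wild type (log2 fold change -0.63 ± 0.13, adjusted p = 0.00172 by edgeR). Bag3, a co-chaperone that links HSP70 to autophagy, averaged 31.6 ± 6.96 in the mutant against 67.7 ± 18.9 CPM in the wild type (log2 fold change -1.10 ± 0.26, adjusted p = 0.00481 by edgeR). Hspa8, the constitutive HSP70, averaged 2179.5 ± 534 in the mutant against 3086 ± 247 CPM in the wild type and was not called.

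**Figure D3:**
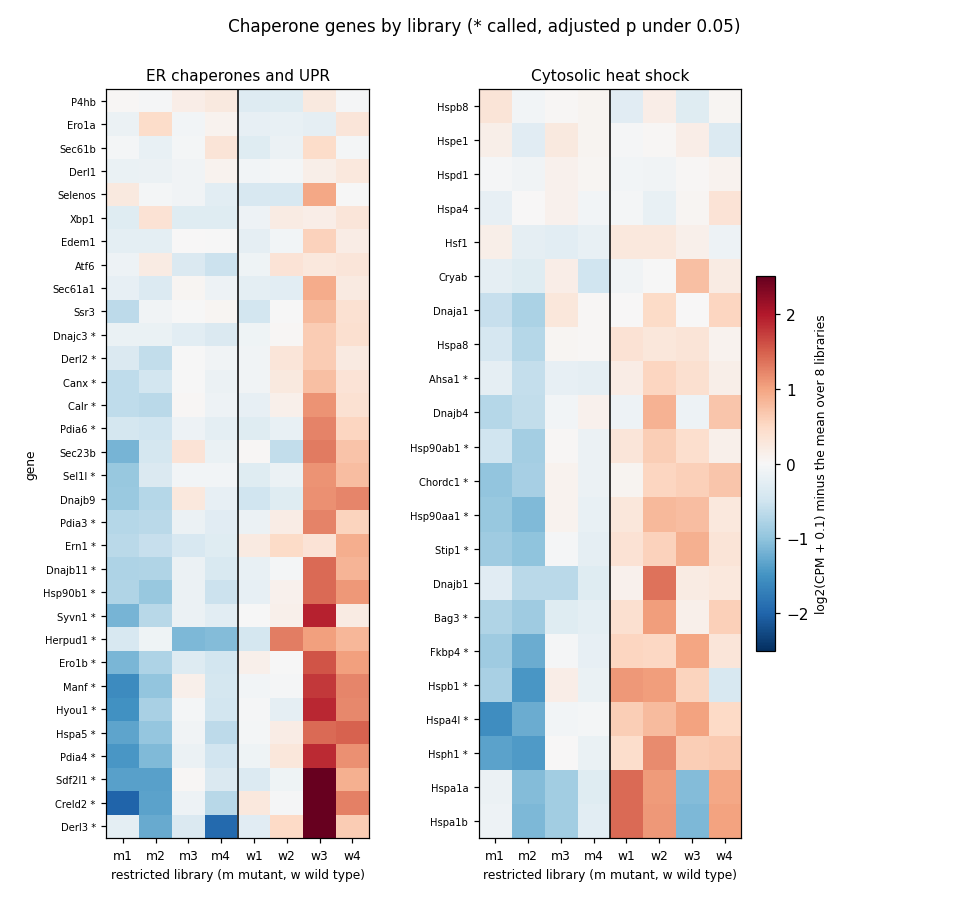
Level of each ER chaperone and UPR gene (left) and each cytosolic heat shock gene (right) in mutant libraries m1 to m4 and wild-type libraries w1 to w4, as log2(CPM + 0.1) minus the gene's mean over the 8 libraries; genes are ordered by log2 fold change and an asterisk marks a called gene. The left panel is reddest in w3 and w4, while in the right panel all wild-type libraries are redder than m1 and m2 for most called genes.

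Of 25 genes of secreted plasma proteins 12 were lower and 2 were higher, with a median of -0.41 on the log2 scale, and the count of lower genes ran from 8, without mutant replicate 4, to 13, and was 5 in the fit to the 8 libraries. Serpina1c, a copy of the gene for the protease inhibitor alpha-1 antitrypsin, stood at 6790.3, 6072, 3647 and 3728 CPM in the mutant, against 9529.8, 13611, 11235 and 12285 CPM in the wild type (log2 fold change -1.21 ± 0.18, adjusted p = 4.7e-05 by edgeR). Near-identical copies may share its reads. Serpinc1, antithrombin, stood at 1812, 1518, 1596 and 1542 CPM in the mutant, against 2543, 2704, 2366 and 2794 CPM in the wild type (log2 fold change -0.69 ± 0.12, adjusted p = 0.000198 by edgeR). Both genes separated the groups, and for Serpina1c mutant replicates 3 and 4 were the lowest. Ttr, the thyroxine carrier, averaged 2443 ± 279.9 CPM in the mutant and 3489 ± 309 CPM in the wild type (SD, n = 4 each; log2 fold change -0.51 ± 0.14, adjusted p = 0.0102 by edgeR). Ahsg, fetuin-A, went the other way with 5805 ± 735 in the mutant against 4203 ± 89.6 CPM in the wild type (log2 fold change 0.47 ± 0.13, adjusted p = 0.0112 by edgeR). In the complement list 4 of 20 genes were lower and 2 higher, against 8.7% and 9.58% of all genes. The count of higher genes was thus near the share over all genes. C6, a subunit of the membrane attack complex, stood at 36.7, 67.5, 74.0 and 53.5 CPM in the mutant, against 7.69, 17.2, 9.25 and 7.98 CPM in the wild type (log2 fold change 2.47 ± 0.24, adjusted p = 1.3e-07 by edgeR). C9, another subunit, averaged 225 ± 45.7 in the mutant against 109 ± 25.6 CPM in the wild type (log2 fold change 1.05 ± 0.18, adjusted p = 0.000169 by edgeR). Both C6 and C9 were higher in every mutant library than in any wild-type library. C1s1, the protease of the classical pathway, averaged 259 ± 12.0 in the mutant against 405 ± 53 CPM in the wild type (log2 fold change -0.64 ± 0.10, adjusted p = 8.01e-05 by edgeR), with a difference from the freely fed effect of -0.88 ± 0.14 that was called. Mbl1, a lectin that starts the lectin pathway, averaged 48.7 ± 7.11 in the mutant against 94.3 ± 20.9 CPM in the wild type (log2 fold change -0.95 ± 0.15, adjusted p = 0.000112 by edgeR). Of the list, 6 genes were higher and 0 lower on free feeding, and the difference of the effects was called for 3. Of 12 defining hepatocyte markers 5 were lower and 2 higher, and their summed level was 106040 to 138461 CPM in the mutant and 145672 to 188295 CPM in the wild type. In whole liver, fewer cells of a type and less RNA per cell cannot be told apart.

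Genes of fatty acid oxidation and other targets of the fasting receptor PPARalpha were mostly lower in the restricted mutant. Of 43 genes 24 were lower and 3 higher, with a median log2 fold change of -0.37. Without wild-type replicate 1 the count of lower genes was 14, without mutant replicate 2 it was 15, and in the fit to the 8 libraries 9. Fabp1, the liver's fatty acid carrier, stood at 693, 576, 614 and 671 CPM in the mutant, against 2009.8, 3543, 2118 and 2221 CPM in the wild type (log2 fold change -1.95 ± 0.18, adjusted p = 6.35e-08 by edgeR). Crat, which moves acetyl groups between carnitine and coenzyme A, stood at 55.8, 35.1, 56.2 and 59.6 CPM in the mutant, against 163, 114, 100.3 and 99.4 CPM in the wild type (log2 fold change -1.21 ± 0.18, adjusted p = 4.02e-05 by edgeR). The groups were separate for both, and mutant replicate 2 was the lowest library in each. Ehhadh, the peroxisomal bifunctional enzyme, averaged 441 ± 102 CPM in the mutant and 838 ± 257 CPM in the wild type (SD, n = 4 each; log2 fold change -0.93 ± 0.23, adjusted p = 0.00681 by edgeR). Hadha, a subunit of the mitochondrial trifunctional protein, averaged 352 ± 22.4 in the mutant against 494 ± 41.3 CPM in the wild type (log2 fold change -0.49 ± 0.10, adjusted p = 0.000887 by edgeR). Acot1, an acyl-CoA thioesterase whose reads its copy Acot2 may share, averaged 151 ± 58.0 in the mutant against 568 ± 199.9 CPM in the wild type (log2 fold change -1.91 ± 0.32, adjusted p = 0.000219 by edgeR). On free feeding 22 of the same 43 genes were lower and 0 were higher, and the difference between the 2 effects was called for 1 of them, Cd36.

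Cd36, the fatty acid uptake receptor, was higher under restriction and not on free feeding, and the difference was called. Under restriction it stood at 116, 89.9, 143 and 144 CPM in the mutant, against 10.7, 13.9, 15.1 and 21.8 CPM in the wild type (log2 fold change 3.01 ± 0.38, adjusted p = 1.22e-05 by edgeR). On free feeding it stood at 41.0, 49.1, 43.1 and 53.8 CPM in the freely fed mutant, against 99.6, 48.1, 80.5 and 117 CPM in the freely fed wild type (log2 fold change -0.88 ± 0.35, adjusted p = 0.122 by edgeR). Every restricted mutant library was above every restricted wild-type library, and the difference of the effects was 3.89 ± 0.52, adjusted p = 0.000193 by edgeR. Of 20 genes of lipid droplets, which store and release triglyceride, 9 were higher and 3 lower, with a median log2 fold change of 0.17, against 1 higher and 3 lower on free feeding. Cidec, which fuses droplets, stood at 10.4, 18.6, 9.92 and 13 CPM in the mutant, against 4.32, 3.22, 1.80 and 2.15 CPM in the wild type (log2 fold change 2.16 ± 0.47, adjusted p = 0.0027 by edgeR). Pnpla2, the lipase ATGL that starts triglyceride breakdown, stood at 306, 205, 137 and 157 CPM in the mutant, against 100.6, 64.4, 33.3 and 55.2 CPM in the wild type (log2 fold change 1.66 ± 0.27, adjusted p = 0.000122 by edgeR). Fitm1, which helps form droplets, stood at 15, 9.49, 11.7 and 11.9 CPM in the mutant, against 3.61, 4.44, 1.80 and 3.29 CPM in the wild type (log2 fold change 1.87 ± 0.20, adjusted p = 5.23e-07 by edgeR). For these 3 genes the libraries of the groups did not overlap. Mogat1, a monoacylglycerol acyltransferase, averaged 2.56 ± 0.614 CPM in the mutant and 0.719 ± 0.377 CPM in the wild type (SD, n = 4 each; log2 fold change 1.77 ± 0.34, adjusted p = 0.000629 by edgeR). Pparg, the receptor that drives fat storage, averaged 5.76 ± 0.903 CPM in the mutant and 1.40 ± 0.412 CPM in the wild type (SD, n = 4 each; log2 fold change 2.02 ± 0.37, adjusted p = 0.000453 by edgeR). The difference between the restricted and freely fed effects was 3.17 ± 0.65 for Cidec, 1.54 ± 0.37 for Pnpla2, 2.30 ± 0.26 for Fitm1, 2.62 ± 0.44 for Mogat1 and 3.20 ± 0.51 for Pparg, and edgeR called each. The difference of Pnpla2 lost its call in 10 of 16 leave-one-out fits. Mgll, the lipase of the last step of triglyceride breakdown, was called lower on both diets, with log2 fold changes of -1.08 ± 0.20 under restriction and -1.20 ± 0.20 on free feeding. The count of higher droplet genes was 7 without mutant replicate 1 and in the fit to the 8 libraries. The count of lower ones was 1 without wild-type replicate 1, wild-type replicate 4 or mutant replicate 2, and 2 in the fit to the 8 libraries.

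Of 24 genes of lipid synthesis 8 were lower and 1 was higher, with a median of -0.49, against 6 lower and 0 higher on free feeding, and the difference of the effects was called for 1. Dgat2, which makes triglyceride, stood at 304, 256, 209 and 239 CPM in the mutant, against 509.9, 497, 442 and 486 CPM in the wild type (log2 fold change -0.94 ± 0.11, adjusted p = 3.1e-06 by edgeR). Its groups were far apart, with little spread in either. Mlxipl, the sugar-sensing factor ChREBP, stood at 175, 128, 150.0 and 181 CPM in the mutant, against 461, 453, 413 and 152 CPM in the wild type (log2 fold change -1.22 ± 0.23, adjusted p = 0.000481 by edgeR), where wild-type replicate 4 lay within the mutant range. Me1, malic enzyme, averaged 69.1 ± 15.7 CPM in the mutant and 160.1 ± 14.6 CPM in the wild type (SD, n = 4 each; log2 fold change -1.21 ± 0.27, adjusted p = 0.00267 by edgeR). Acacb, the acetyl-CoA carboxylase of mitochondria, averaged 74.4 ± 19.8 in the mutant against 158 ± 35.1 CPM in the wild type (log2 fold change -1.08 ± 0.26, adjusted p = 0.00544 by edgeR). Without wild-type replicate 3 or mutant replicates 1 or 2 the count of lower genes was 6, and it was 4 in the fit to the 8 libraries. In cholesterol synthesis 0 of 25 genes were higher and 1 was lower under restriction, with a median of -0.04, while 9 were higher on free feeding, with a median of 0.88. The difference of the effects was called for 1 of the 25, Sqle, an enzyme of the pathway. The gene that fell was Stard4, a carrier of cholesterol inside cells (log2 fold change -0.98 ± 0.27, adjusted p = 0.0119 by edgeR). Of 20 bile acid genes 3 were higher and 4 lower, against 9.58% and 8.7% of all genes. The count of higher ones was 1 without wild-type replicate 4 or mutant replicate 3, and the fit to the 8 libraries called 1 higher and 1 lower. Slc10a1, the main uptake transporter, averaged 363 ± 36.5 in the mutant against 506 ± 10.0 CPM in the wild type (log2 fold change -0.48 ± 0.12, adjusted p = 0.00694 by edgeR). Cyp2a12, a bile acid hydroxylase of mice, averaged 659 ± 43.1 in the mutant against 421 ± 53.9 CPM in the wild type (log2 fold change 0.65 ± 0.13, adjusted p = 0.000843 by edgeR).

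In the list of glucose metabolism 4 of 21 genes were lower and 1 was higher, against 8.7% and 9.58% of all genes. Without wild-type replicate 1 the count of lower genes was 1. Gys2, the liver's glycogen synthase, rose (log2 fold change 0.87 ± 0.19, adjusted p = 0.00278 by edgeR). Of 21 genes of insulin signalling and nutrient sensing 1 was higher and 0 were lower. Clock genes were lower in 7 of 21 cases and higher in 1, with a median of -0.36. The count of lower genes was 4 without wild-type replicate 2, wild-type replicate 4 or mutant replicate 2, and 2 in the fit to the 8 libraries. Bhlhe40, a repressor in the feedback of the clock, stood at 41.6, 41.8, 49.7 and 73.4 CPM in the mutant, against 105, 141, 106 and 99.1 CPM in the wild type (log2 fold change -1.13 ± 0.19, adjusted p = 0.000213 by edgeR). Arntl, which encodes the core activator BMAL1, stood at 16.2, 22.8, 18.0 and 13 CPM in the mutant, against 25, 24.5, 36.5 and 42.7 CPM in the wild type (log2 fold change -0.87 ± 0.23, adjusted p = 0.0104 by edgeR; call lost in the fit to the 8 libraries). All mutant libraries lay below all wild-type libraries for both genes. On free feeding 0 of the 21 clock genes were called, and the difference of the effects was called for 0. The labels give no time of collection, and a shift of phase and a change of level cannot be told apart.

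Genes of hormone action were changed at several steps. Dio1, the deiodinase that makes active thyroid hormone in liver, stood at 4.03, 2.04, 0.759 and 0.972 CPM in the mutant, against 7.31, 51.7, 26.5 and 20.8 CPM in the wild type (log2 fold change -3.75 ± 0.49, adjusted p = 2.14e-05 by edgeR), and 6 of 15 genes of thyroid hormone action were lower and 1 higher. The Dio1 groups did not overlap, although mutant replicate 1 and wild-type replicate 1 were near each other. Without mutant replicate 1 the log2 fold change was -4.37 and the list had 3 lower genes, which was also its count in the fit to the 8 libraries. Hr, a nuclear co-repressor that thyroid hormone induces in brain, went the other way (log2 fold change 3.65 ± 0.48, adjusted p = 9.16e-06 by edgeR). On free feeding Dio1 averaged 43.0 ± 7.76 CPM in the freely fed mutant and 92.1 ± 8.95 CPM in the freely fed wild type, and the difference of the effects was -2.65 ± 0.62, adjusted p = 0.0353 by edgeR. That call was lost in 13 of 16 leave-one-out fits. Ghr, the growth hormone receptor, stood at 119, 96.9, 112 and 97.7 CPM in the mutant, against 145, 313, 217 and 177 CPM in the wild type (log2 fold change -1.0 ± 0.17, adjusted p = 0.000141 by edgeR). Igfals, which carries IGF1 in plasma, averaged 81.9 ± 25.6 in the mutant against 168 ± 29.2 CPM in the wild type (log2 fold change -1.04 ± 0.18, adjusted p = 0.000226 by edgeR). For both receptor and carrier every mutant library lay below every wild-type library, while Igf1 averaged 188 ± 41.8 in the mutant against 228 ± 37.3 CPM in the wild type and was not called.

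Sex-biased liver genes, which the pulses of growth hormone set, moved in both directions. Of 34 genes that are higher in female mice 13 were lower and 9 higher, with a median of -0.20. Of 27 male-biased genes 5 were lower and 5 higher. The count of lower male-biased genes was 2 without mutant replicates 2, 3 or 4. Cyp2b13, a female-biased cytochrome P450, stood at 41.7, 32.1, 55.0 and 52.9 CPM in the mutant, against 151, 156, 276 and 176 CPM in the wild type (log2 fold change -2.06 ± 0.37, adjusted p = 0.000523 by edgeR). Cyp2b9, its neighbour, averaged 132 ± 39.9 in the mutant against 433 ± 126 CPM in the wild type (log2 fold change -1.71 ± 0.46, adjusted p = 0.0137 by edgeR), and these copies may share reads. Slc22a27, an organic anion transporter, stood at 23.3, 20.1, 33.7 and 29.2 CPM in the mutant, against 45.6, 64.5, 67.6 and 57.8 CPM in the wild type (log2 fold change -1.15 ± 0.15, adjusted p = 1.26e-05 by edgeR). All mutant libraries lay below all wild-type libraries for Cyp2b13 and Slc22a27. Cyp3a41a, whose near-identical copy Cyp3a41b may take part of its reads, stood higher at 704, 579, 819 and 781 CPM in the mutant, against 540.4, 241, 255 and 257 CPM in the wild type (log2 fold change 1.16 ± 0.21, adjusted p = 0.000387 by edgeR), with wild-type replicate 1 the closest to the mutant. Sult2a2, a sulfotransferase of bile acids and steroids, averaged 11.1 ± 8.31 in the mutant against 0.683 ± 0.501 CPM in the wild type (log2 fold change 4.01 ± 0.57, adjusted p = 2.8e-05 by edgeR). On free feeding 16 of the 34 female-biased genes were lower and 3 higher, with a median of -1.39, and the difference of the effects was called for 11, of which 8 were more positive under restriction.

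Of 22 targets of the drug receptors CAR and PXR, the difference of the genotype effects between the diets was called for 4, all more positive under restriction. Cyp2b10 stood under restriction at 48.9, 18.3, 15.2 and 17.8 CPM in the mutant, against 123, 50.2, 83.6 and 86.4 CPM in the wild type (log2 fold change -1.78 ± 0.41, adjusted p = 0.00442 by edgeR). Without restriction it averaged 0.489 ± 0.217 CPM in the freely fed mutant and 23.8 ± 8.04 CPM in the freely fed wild type (log2 fold change -5.58 ± 0.58, adjusted p = 1.64e-06 by edgeR). Cyp2c29 stood under restriction at 299.6, 278, 199.9 and 246 CPM in the mutant, against 518, 468, 494 and 628 CPM in the wild type (log2 fold change -1.04 ± 0.17, adjusted p = 0.000129 by edgeR). Its freely fed average was 108 ± 13.9 CPM in the freely fed mutant and 1067 ± 179.6 CPM in the freely fed wild type (log2 fold change -3.30 ± 0.19, adjusted p = 1.96e-11 by edgeR). The mutant was lower on both diets and less so under restriction. The difference of the effects was 3.80 ± 0.72, adjusted p = 0.00675 by edgeR for Cyp2b10, and 2.26 ± 0.24, adjusted p = 1.33e-05 by edgeR for Cyp2c29. Ces2a, a carboxylesterase, had log2 fold changes of -1.06 ± 0.16 under restriction and -0.89 ± 0.16 on free feeding, and the difference was not called. Under restriction 5 of the 22 genes were higher and 4 lower, and the count of higher genes was 2 without wild-type replicate 3 or mutant replicate 3. Cyp2a5, a coumarin hydroxylase, was among the higher ones (log2 fold change 0.98 ± 0.25, adjusted p = 0.00833 by edgeR).

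Many interferon-stimulated genes were higher in the restricted mutant. Interferons signal through transcription factors that bind the interferon-stimulated response element (ISRE), and the products block viral RNA and proteins. Of 48 genes 23 were higher and 0 lower (9.58% and 8.7% of all genes), with a median log2 fold change of 0.84. Their summed level overlapped between the groups, at 743 to 1443 CPM in the mutant and 750 to 899 CPM in the wild type. The list median of log2 CPM relative to each gene's mean was -0.36 in mutant replicate 1. That lay below wild-type replicates 3 (0.001) and 4 (-0.26), so the list was not raised in every mutant library. On free feeding 23 were higher and 1 lower, with a median of 0.90, and the difference of the effects was called for 0. The core letters of that element, GAAA and GAAA with 2 unspecified bases between them, on either strand, occur in 1079 of 27025 promoters (3.99%), in those of 10 of 17 called members with a promoter and 11 of 18 that were not called. The promoters of Oas1a (chr5:120907476-120907775, minus strand), Bst2 (chr8:71537423-71537722, minus strand) and Gbp3 (chr3:142559794-142560093, plus strand) are shown because these genes passed in every leave-one-out fit, in RefSeq on GRCm38.p6. Capitals mark matches on either strand, and each promoter holds 2 that overlap.
Oas1a: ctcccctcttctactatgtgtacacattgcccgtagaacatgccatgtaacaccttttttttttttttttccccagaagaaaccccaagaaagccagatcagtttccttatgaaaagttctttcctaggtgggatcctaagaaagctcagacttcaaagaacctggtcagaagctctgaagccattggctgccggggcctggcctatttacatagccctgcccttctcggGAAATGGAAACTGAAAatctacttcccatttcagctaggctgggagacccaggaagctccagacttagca
Bst2: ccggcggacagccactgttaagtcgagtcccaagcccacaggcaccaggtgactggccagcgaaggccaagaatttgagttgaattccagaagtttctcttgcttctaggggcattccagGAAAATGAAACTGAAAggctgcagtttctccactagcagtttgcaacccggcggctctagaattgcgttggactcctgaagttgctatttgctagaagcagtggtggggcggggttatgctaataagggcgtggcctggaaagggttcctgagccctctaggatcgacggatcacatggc
Gbp3: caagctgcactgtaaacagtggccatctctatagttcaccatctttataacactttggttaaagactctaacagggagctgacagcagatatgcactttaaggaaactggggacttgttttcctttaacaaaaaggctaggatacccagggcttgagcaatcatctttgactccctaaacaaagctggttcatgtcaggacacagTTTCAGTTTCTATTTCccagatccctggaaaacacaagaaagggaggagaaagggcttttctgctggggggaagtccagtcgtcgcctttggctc

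Irf7, a transcription factor of the interferon feedback loop, stood at 31.1, 49.1, 48.0 and 39.8 CPM in the mutant, against 7.69, 7.88, 6.68 and 6.84 CPM in the wild type (log2 fold change 2.53 ± 0.21, adjusted p = 2.86e-08 by edgeR). Usp18, which removes ISG15 and dampens the receptor, stood at 26.7, 36.7, 25.2 and 20.2 CPM in the mutant, against 2.61, 1.43, 3.47 and 2.53 CPM in the wild type (log2 fold change 3.43 ± 0.31, adjusted p = 7.38e-08 by edgeR). Gbp3, a guanylate-binding GTPase, stood at 6.77, 10.1, 11.2 and 9.01 CPM in the mutant, against 0.759, 2.15, 2.7 and 2.47 CPM in the wild type (log2 fold change 2.22 ± 0.28, adjusted p = 5.96e-06 by edgeR). For each gene the lowest mutant library was well above the highest wild-type library. Bst2, which tethers virus particles, stood at 145, 185, 182 and 180.1 CPM in the mutant, against 104, 92.3, 107 and 89.3 CPM in the wild type (log2 fold change 0.82 ± 0.13, adjusted p = 0.000115 by edgeR). Oas1a, a sensor of double-stranded RNA whose copy Oas1g may share its reads, averaged 5.12 ± 0.836 in the mutant against 1.21 ± 0.619 CPM in the wild type (log2 fold change 2.09 ± 0.32, adjusted p = 6.24e-05 by edgeR). Zbp1, a sensor of Z-form nucleic acids, averaged 4.47 ± 1.03 in the mutant against 1.01 ± 0.362 CPM in the wild type (log2 fold change 2.16 ± 0.32, adjusted p = 4.01e-05 by edgeR). Ifi27 averaged 60.3 ± 8.42 in the mutant against 28 ± 4.72 CPM in the wild type (log2 fold change 1.10 ± 0.20, adjusted p = 0.000333 by edgeR). No library of the groups overlapped in these genes either. Other members of the list depended on mutant replicate 3. Ifit1, which binds viral RNA, stood at 2.39, 5.09, 18.3 and 10.9 CPM in the mutant, against 0.712, 2.94, 3.98 and 3.74 CPM in the wild type (log2 fold change 1.70 ± 0.52, adjusted p = 0.0246 by edgeR). This call was lost without mutant replicate 3, where its log2 fold change was 1.12, without mutant replicate 4, without wild-type replicate 1 and in the fit to the 8 libraries. The list had 16 higher genes without mutant replicate 3, up to 31 without another library, and 11 in the fit to the 8 libraries. In antigen presentation 4 of 19 genes were higher, among them the immunoproteasome subunit Psmb8 (log2 fold change 0.74 ± 0.14, adjusted p = 0.000754 by edgeR), and the count was 2 without wild-type replicate 4 or mutant replicate 3. Among sensors upstream of interferon 2 of 15 were higher and 1 was lower, against 9.58% and 8.7% of all genes. The lower gene was Rnaseh2c, a subunit of the RNase that clears RNA from DNA hybrids (log2 fold change -0.60 ± 0.13, adjusted p = 0.00149 by edgeR).

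Markers of macrophages and Kupffer cells, the resident macrophages of liver, rose almost throughout: 23 of 28 were higher and 1 was lower, with a median of 1.28 on the log2 scale, and 18 to 23 were higher in every leave-one-out fit. Their summed level was 438 to 625 CPM in the mutant and 246 to 379 CPM in the wild type. Cd68, a lysosomal protein of macrophages, stood at 7.00, 7.51, 7.47 and 8.30 CPM in the mutant, against 1.57, 3.15, 2.83 and 2.28 CPM in the wild type (log2 fold change 1.64 ± 0.24, adjusted p = 2.95e-05 by edgeR). Clec4f, a lectin that marks Kupffer cells in mice, stood at 90.5, 123, 89.2 and 91.5 CPM in the mutant, against 31.3, 42.3, 59.4 and 52.1 CPM in the wild type (log2 fold change 1.09 ± 0.23, adjusted p = 0.00186 by edgeR). C1qa, a chain of the first complement component that macrophages make, stood at 42.8, 46.6, 32.5 and 36.6 CPM in the mutant, against 12.3, 15.3, 21.7 and 23.6 CPM in the wild type (log2 fold change 1.12 ± 0.22, adjusted p = 0.000912 by edgeR). In all of these the mutant libraries lay above the wild-type libraries. Csf1r, the receptor for the macrophage growth factor, averaged 24.6 ± 5.30 CPM in the mutant and 10.8 ± 2.09 CPM in the wild type (SD, n = 4 each; log2 fold change 1.19 ± 0.25, adjusted p = 0.00151 by edgeR). Vsig4, a complement receptor of Kupffer cells, averaged 16.3 ± 3.30 in the mutant against 6.00 ± 1.88 CPM in the wild type (log2 fold change 1.45 ± 0.27, adjusted p = 0.000426 by edgeR). Gpnmb, which marks lipid-handling macrophages, averaged 1.86 ± 0.296 in the mutant against 0.201 ± 0.150 CPM in the wild type (log2 fold change 3.26 ± 0.56, adjusted p = 0.000218 by edgeR). Trem2, a lipid receptor of the same cells, averaged 1.15 ± 0.112 in the mutant against 0.143 ± 0.0847 CPM in the wild type (log2 fold change 2.99 ± 0.52, adjusted p = 0.000251 by edgeR), and neither overlapped between the groups. On free feeding 11 of the 28 markers were higher and 1 was lower, and the difference of the effects was called for 0. Slc40a1, the iron exporter ferroportin, which hepatocytes also express, was the member that fell (log2 fold change -0.86 ± 0.22, adjusted p = 0.00831 by edgeR; call lost in the fit to the 8 libraries).

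Markers of other cell types were tracked beside these. Of 13 neutrophil genes 6 passed the filter on low counts and 5 were higher, but only 1 without wild-type replicate 1. Among the 5 was Cxcl1, a chemokine that acts on neutrophils and also stands in the senescence list. Not every gene counted is thus a marker of these cells. The remaining tested gene of the list, Ly6g, had a log2 fold change of -0.30 and was not called. S100a8, an abundant neutrophil protein, averaged 1.12 ± 0.413 in the mutant against 0.233 ± 0.0857 CPM in the wild type (log2 fold change 2.21 ± 0.57, adjusted p = 0.00857 by edgeR). A gene this low in the restricted wild type passes the filter only through other groups. The share of tested genes that were higher may therefore owe something to the filter. The granule genes Elane, Mpo and Ngp had 0 counts in all 8 libraries. For T and NK cells 4 of 19 genes passed the filter and 0 were called, and the other members had at most 40 counts summed over a group. Of the T cell receptor complex, Cd3e had 11 counts over the mutant and 11 over the wild type, Cd3g 17 over the mutant and 7 over the wild type, and Cd3d 9 over the mutant and 4 over the wild type. Klrk1, which encodes NKG2D, had 23 counts over the mutant and 10 over the wild type, and the chemokine Ccl5 40 over the mutant and 7 over the wild type. These genes were not tested. For B and plasma cells 7 of 14 passed and 0 were called, and DESeq2 and the fit to the 8 libraries each called 1 as higher. All 7 had positive log2 fold changes, with a median of 0.92, and their summed level was 4.29 to 5.95 CPM in the mutant and 2.41 to 3.53 CPM in the wild type. The highest library of the wild type thus lay below the lowest of the mutant, while the B cell marker Ms4a1 had 0 counts. Of 22 endothelial genes 1 was higher and 1 lower, of 23 stellate cell and matrix genes 2 were higher, of 12 cholangiocyte genes 2 were higher and 1 lower, and of 6 erythroid genes 0 were called. Dnase1l3, a nuclease of sinusoidal endothelium, fell (log2 fold change -0.97 ± 0.27, adjusted p = 0.0144 by edgeR), and Col4a2, a basement membrane collagen, rose (log2 fold change 1.06 ± 0.21, adjusted p = 0.000847 by edgeR). The part of cell numbers in the macrophage result was not tested. Of 21 acute-phase genes 1 was higher and 2 were lower, and Itih4, an inhibitor chain of plasma, fell (log2 fold change -0.92 ± 0.24, adjusted p = 0.00864 by edgeR).

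**Figure D4:**
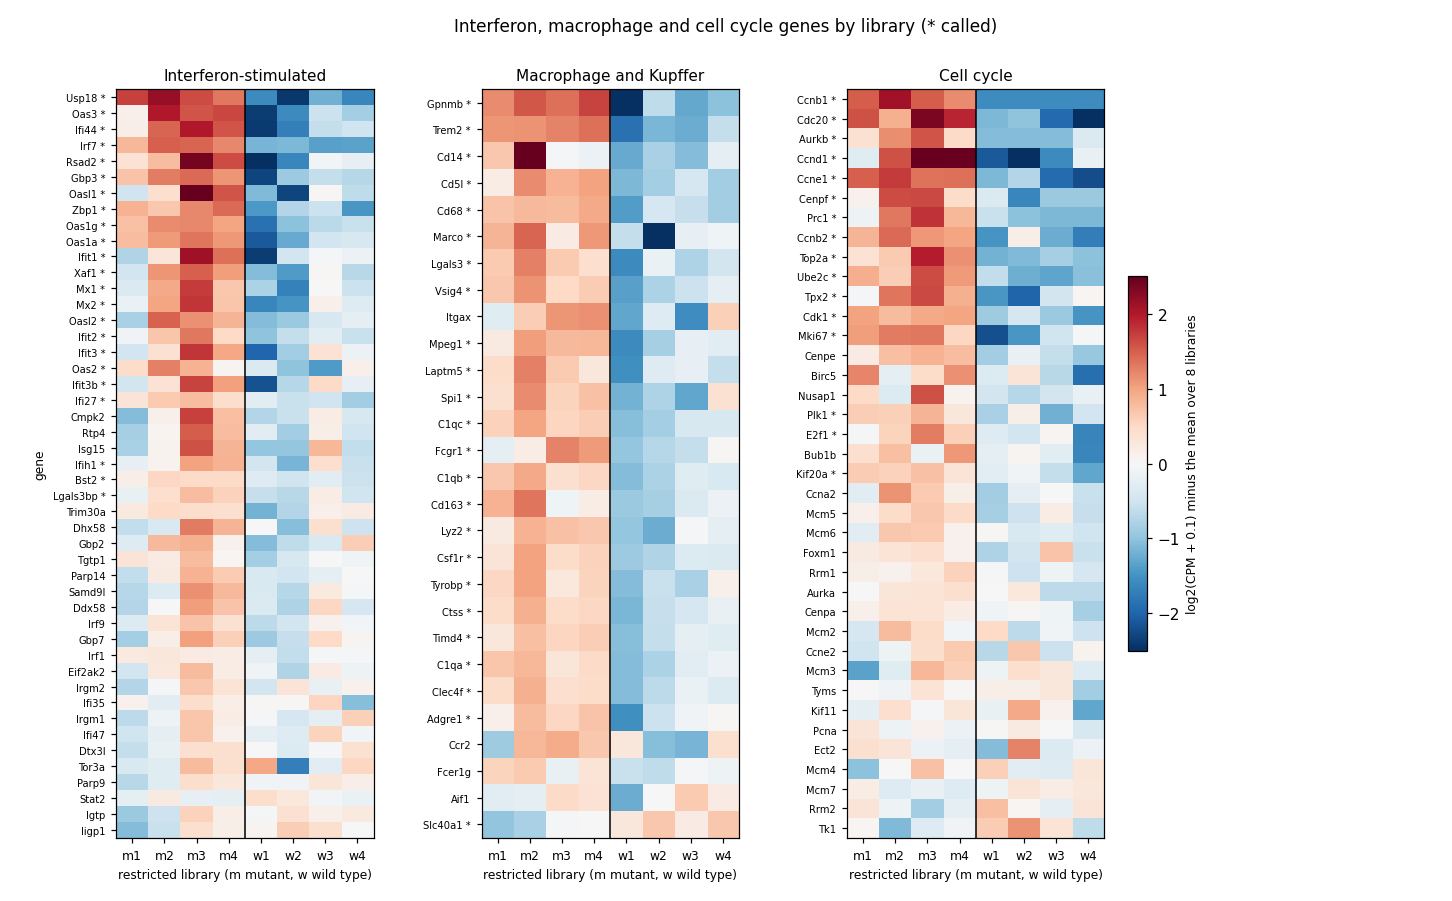
Level of interferon-stimulated, macrophage and cell cycle genes in mutant libraries m1 to m4 and wild-type libraries w1 to w4, as log2(CPM + 0.1) minus the gene's mean over the 8 libraries, ordered by log2 fold change, with an asterisk at called genes. Most macrophage genes are higher in the mutant libraries, whereas the interferon panel is reddest in m3.

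Targets of p53, the factor that DNA damage activates, were higher in 11 of 34 cases and lower in 1, with a median log2 fold change of 0.45, against 14 higher and 1 lower on free feeding, and the difference of the effects was called for 1. The count of higher p53 targets was 8 to 12 in leave-one-out fits and 6 in the fit to the 8 libraries. Some called members also act in cell division, and their part in this count was not tested. Gdf15, a stress-induced hormone that suppresses appetite, stood at 15.5, 36.2, 12.4 and 11.4 CPM in the mutant, against 4.22, 3.58, 7.64 and 6.53 CPM in the wild type (log2 fold change 1.78 ± 0.41, adjusted p = 0.0041 by edgeR). Phlda3, an inhibitor of AKT, stood at 1.69, 5.31, 2.16 and 2.01 CPM in the mutant, against 0.380, 0.358, 0.578 and 0.697 CPM in the wild type (log2 fold change 2.47 ± 0.60, adjusted p = 0.00539 by edgeR). Ccng1, cyclin G1, stood at 19.6, 37.6, 24.4 and 26.6 CPM in the mutant, against 12.2, 12.3, 14.8 and 21.5 CPM in the wild type (log2 fold change 0.83 ± 0.21, adjusted p = 0.00833 by edgeR; call lost in the fit to the 8 libraries). Mutant replicate 2 was the highest library for all of these, and the groups overlapped for Ccng1. Eda2r, a receptor of the tumour necrosis factor family, averaged 0.688 ± 0.319 in the mutant against 0.0756 ± 0.0600 CPM in the wild type (log2 fold change 3.07 ± 0.84, adjusted p = 0.0126 by edgeR). Tnfrsf10b, the death receptor for TRAIL, averaged 0.950 ± 0.0769 in the mutant against 0.119 ± 0.0824 CPM in the wild type (log2 fold change 2.90 ± 0.70, adjusted p = 0.00485 by edgeR). Cdkn1a, the cell cycle inhibitor p21, stood at 27.2, 47.9, 15.1 and 11.6 CPM in the mutant, against 5.60, 10.0, 11.2 and 11.2 CPM in the wild type and was not called (edgeR adjusted p = 0.0806), with mutant replicates 1 and 2 above the rest. Perp, a p53 target of desmosomes, was the member that fell (log2 fold change -0.79 ± 0.13, adjusted p = 9.66e-05 by edgeR).

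Of 8 listed ligands of NKG2D, the receptor through which NK and T cells recognise stressed cells, 5 were among the genes counted. Of those 5, 2 passed the filter on low counts and both were higher. Raet1d stood at 21.8, 24.9, 14.2 and 20.6 CPM in the mutant, against 1.95, 3.30, 2.5 and 1.90 CPM in the wild type (log2 fold change 3.09 ± 0.37, adjusted p = 4.32e-06 by edgeR). Raet1e stood at 15.6, 16.8, 9.86 and 14.8 CPM in the mutant, against 1.47, 2.51, 2.12 and 1.14 CPM in the wild type (log2 fold change 2.99 ± 0.41, adjusted p = 2.11e-05 by edgeR). For both the lowest mutant library was several times the highest wild-type library, though the copies may share reads, and the difference from the freely fed effect was 2.27 ± 0.49 for Raet1d and 2.20 ± 0.54 for Raet1e (edgeR called both). Without freely fed wild-type replicate 3 these differences were 1.59 and 1.48, and that of Raet1e lost its call there and in 12 of 16 leave-one-out fits in all. The gene for the receptor, Klrk1, did not pass the filter on low counts in these livers.

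Cell cycle genes rose in 16 of 38 cases and fell in 0, with a median log2 fold change of 1.16, against 1 higher and 0 lower on free feeding. The count of higher genes was 11 without mutant replicate 3 and 9 in the fit to the 8 libraries. The 22 members not called included all listed Mcm genes of DNA replication. In the list 5 members had negative log2 fold changes, down to -0.81. Late cell cycle genes carry the cell cycle homology region (CHR) through which the DREAM complex represses them. Its letters TTTGAA, on either strand, occur in 5466 of 27025 promoters (20.2%), and in those of 9 of 12 called members with a promoter and 6 of 18 that were not called. The promoters of Ube2c (chr2:164769679-164769978, plus strand) and Cdc20 (chr4:118437294-118437593, minus strand), which act together at the end of mitosis, are shown with the match in capitals, in RefSeq on GRCm38.p6.
Ube2c: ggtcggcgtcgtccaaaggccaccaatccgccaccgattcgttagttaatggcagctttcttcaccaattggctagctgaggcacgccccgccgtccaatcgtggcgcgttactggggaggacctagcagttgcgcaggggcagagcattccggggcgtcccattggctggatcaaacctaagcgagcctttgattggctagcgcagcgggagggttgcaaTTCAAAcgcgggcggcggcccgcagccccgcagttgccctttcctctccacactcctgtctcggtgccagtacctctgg
Cdc20: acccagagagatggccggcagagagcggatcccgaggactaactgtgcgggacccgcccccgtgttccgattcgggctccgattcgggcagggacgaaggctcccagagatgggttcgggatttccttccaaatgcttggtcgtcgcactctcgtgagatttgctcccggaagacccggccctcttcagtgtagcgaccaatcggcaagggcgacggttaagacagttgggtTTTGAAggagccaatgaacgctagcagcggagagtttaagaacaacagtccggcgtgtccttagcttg

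Cdc20, which activates the anaphase-promoting complex, stood at 1.81, 1.07, 3.15 and 2.27 CPM in the mutant, against 0.190, 0.215, 0.0642 and 0 CPM in the wild type (log2 fold change 4.03 ± 0.62, adjusted p = 5.77e-05 by edgeR). Ube2c, the ubiquitin-conjugating enzyme of that complex, stood at 1.28, 1.02, 2.16 and 1.43 CPM in the mutant, against 0.380, 0.215, 0.193 and 0.253 CPM in the wild type (log2 fold change 2.43 ± 0.42, adjusted p = 0.000212 by edgeR). Mki67, the proliferation antigen, stood at 4.90, 5.85, 5.90 and 3.37 CPM in the mutant, against 0.427, 0.788, 1.61 and 2.28 CPM in the wild type (log2 fold change 1.99 ± 0.46, adjusted p = 0.00409 by edgeR). All mutant libraries were above all wild-type libraries in these genes, at levels of a few CPM. Ccne1, cyclin E1, averaged 3.75 ± 0.491 in the mutant against 0.421 ± 0.243 CPM in the wild type (log2 fold change 3.13 ± 0.50, adjusted p = 0.000101 by edgeR). Top2a, topoisomerase II, averaged 2.11 ± 1.15 in the mutant against 0.380 ± 0.0503 CPM in the wild type (log2 fold change 2.45 ± 0.50, adjusted p = 0.00112 by edgeR). Ccnb1, cyclin B1, drew 57 counts in the mutant libraries together and 0 in the wild type, which is at least 18.5-fold higher against 3 counts over the group. The diet difference was called for Cdc20 alone in the list, at 3.29 ± 0.79, adjusted p = 0.0342 by edgeR, and was lost in 10 of 16 leave-one-out fits. E2f8, a repressor that limits the cell cycle of hepatocytes, was lower (log2 fold change -3.22 ± 0.64, adjusted p = 0.00135 by edgeR). Its log2 fold change was -1.84 without wild-type replicate 2, which held 44.3 CPM against 4.82 to 6.97 CPM in the other wild-type libraries.

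Of 23 targets of NRF2, the factor of the oxidative stress response, 8 were higher and 2 lower, and the count of higher genes was 3 without mutant replicate 3 or 4 and 2 in the fit to the 8 libraries. Nqo1, a quinone reductase, stood at 8.41, 6.11, 14.4 and 11.9 CPM in the mutant, against 4.65, 2.15, 3.47 and 1.58 CPM in the wild type (log2 fold change 1.76 ± 0.30, adjusted p = 0.000208 by edgeR). Gstm2, a glutathione transferase, averaged 202 ± 53.7 in the mutant against 96.8 ± 23.9 CPM in the wild type (log2 fold change 1.06 ± 0.18, adjusted p = 0.000149 by edgeR). In the lysosome list 5 of 26 genes were higher and 2 lower, against 9.58% and 8.7% of all genes. Hexa, a subunit of a lysosomal hexosaminidase, averaged 42.8 ± 1.88 CPM in the mutant and 20.9 ± 2.71 CPM in the wild type (SD, n = 4 each; log2 fold change 1.03 ± 0.15, adjusted p = 2.79e-05 by edgeR). Ctsl, cathepsin L, stood at 1775, 1087, 785 and 743 CPM in the mutant, against 429, 299, 297 and 489.8 CPM in the wild type (log2 fold change 1.54 ± 0.22, adjusted p = 3.87e-05 by edgeR). The groups did not overlap for either gene. Among targets of ATF4, the factor of amino acid shortage, 3 of 19 were higher and 1 lower, led by Asns, asparagine synthetase (log2 fold change 2.30 ± 0.58, adjusted p = 0.00723 by edgeR). Asns stood at 3.27, 3.22, 0.642 and 0.907 CPM in the mutant, against 0.427, 0.215, 0.385 and 0.570 CPM in the wild type, with mutant replicates 1 and 2 far above the others. Of 78 cytosolic ribosomal protein genes 1 was higher and 0 were lower under restriction, with a median of -0.01, against 20 higher and 0 lower on free feeding, and the difference of the effects was called for 0 of them.

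Markers of both zones of the liver lobule were called. Of 23 pericentral genes, which lie near the central vein and depend on Wnt signals, 9 were higher and 1 lower. Of 17 periportal genes 7 were higher and 4 lower. The pericentral count was 6 without wild-type replicate 2 and the periportal count 3 in the fit to the 8 libraries. Lect2, a Wnt-dependent secreted protein, stood at 83.9, 81.5, 112 and 107 CPM in the mutant, against 34.2, 50.1, 52.3 and 44.6 CPM in the wild type (log2 fold change 1.09 ± 0.14, adjusted p = 6e-06 by edgeR). Slc1a4, a neutral amino acid transporter, averaged 9.48 ± 2.36 in the mutant against 1.95 ± 1.19 CPM in the wild type (log2 fold change 2.25 ± 0.43, adjusted p = 0.000624 by edgeR). Lhpp, a phosphatase of phosphohistidine, averaged 51.3 ± 12.7 in the mutant against 18.3 ± 7.04 CPM in the wild type (log2 fold change 1.48 ± 0.22, adjusted p = 4.2e-05 by edgeR). On the periportal side Cps1 and Etnppl, described above, were among the higher genes (log2 fold changes 0.85 and 2.02). Ctsc, cathepsin C, was among the 4 lower ones. It fell to 23.3, 25.4, 28.3 and 26.0 CPM in the mutant, against 49.7, 62.8, 61.8 and 60.8 CPM in the wild type (log2 fold change -1.19 ± 0.17, adjusted p = 2.54e-05 by edgeR). Glul, the defining pericentral enzyme that makes glutamine, averaged 313 ± 61.8 in the mutant against 372 ± 45.7 CPM in the wild type and was not called.

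The genotype effect under restriction was set against the effect on free feeding across all genes. On free feeding 1262 of 12690 genes were called (9.94%), and 666 genes were called on both diets, which is 28.7% of the restricted calls and 52.8% of the freely fed calls; 648 of these had the same sign. A test of the difference called 190 genes (1.5%), 115 more positive (0.906%) and 75 more negative (0.591%) under restriction. Of the 190, 135 were also called in the restricted comparison and 99 of those were not called on free feeding, while in 113 the effects had opposite signs. Leaving out single libraries gave 109 to 225 genes, and a fit to the 16 libraries of the 4 groups gave 126.

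Other genes were among those with the largest differences between the diets. They were picked among genes whose restricted groups did not overlap, so that separation is a condition of the choice. Olig1, a transcription factor known from oligodendrocytes, stood under restriction at 38.0, 21.1, 22.9 and 17.8 CPM in the mutant, against 1.38, 0.287, 1.61 and 1.39 CPM in the wild type (log2 fold change 4.39 ± 0.51, adjusted p = 3.48e-06 by edgeR). On free feeding it averaged 6.78 ± 3.93 CPM in the freely fed mutant and 3.60 ± 1.33 CPM in the freely fed wild type, a difference of 3.47 ± 0.67, adjusted p = 0.00687 by edgeR. The restricted mutant was above the restricted wild type in every library. Upp1, uridine phosphorylase, which breaks down uridine, stood under restriction at 2.45, 3.86, 6.48 and 6.29 CPM in the mutant, against 1.33, 1.5, 0.771 and 0.760 CPM in the wild type (log2 fold change 2.12 ± 0.36, adjusted p = 0.000163 by edgeR). On free feeding it averaged 0.714 ± 0.220 CPM in the freely fed mutant and 1.79 ± 0.430 CPM in the freely fed wild type, a difference of 3.43 ± 0.52, adjusted p = 0.000501 by edgeR. The groups did not overlap under restriction, and on free feeding the mean was lower in the mutant. Enho, which encodes the secreted peptide adropin, stood under restriction at 1.98, 1.88, 1.17 and 0.907 CPM in the mutant, against 7.54, 4.37, 8.48 and 3.23 CPM in the wild type (log2 fold change -1.98 ± 0.37, adjusted p = 0.000568 by edgeR). On free feeding it stood at 13.2, 14.7, 13.2 and 16.0 CPM in the freely fed mutant, against 1.39, 3.53, 2.22 and 2.67 CPM in the freely fed wild type (log2 fold change 2.55 ± 0.36, adjusted p = 3.29e-05 by edgeR). Enho thus had opposite directions on the 2 diets, with a difference of -4.53 ± 0.52, adjusted p = 1.33e-05 by edgeR. Pcp4l1, a small protein related to a calmodulin regulator of Purkinje cells, stood under restriction at 1.63, 1.29, 1.69 and 2.40 CPM in the mutant, against 11.8, 12.4, 10.8 and 4.81 CPM in the wild type (log2 fold change -2.51 ± 0.31, adjusted p = 4.64e-06 by edgeR). On free feeding it averaged 1.86 ± 0.642 CPM in the freely fed mutant and 1.55 ± 0.510 CPM in the freely fed wild type, and the difference of the effects was -2.76 ± 0.45, adjusted p = 0.00106 by edgeR. Dclk3, a protein kinase, averaged 2.08 ± 0.839 in the mutant against 18.6 ± 7.81 CPM in the wild type under restriction (log2 fold change -3.17 ± 0.45, adjusted p = 3.41e-05 by edgeR), with a difference of -2.51 ± 0.59, adjusted p = 0.0333 by edgeR. It lost its call in 11 of 16 leave-one-out fits.

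**Figure D5:**
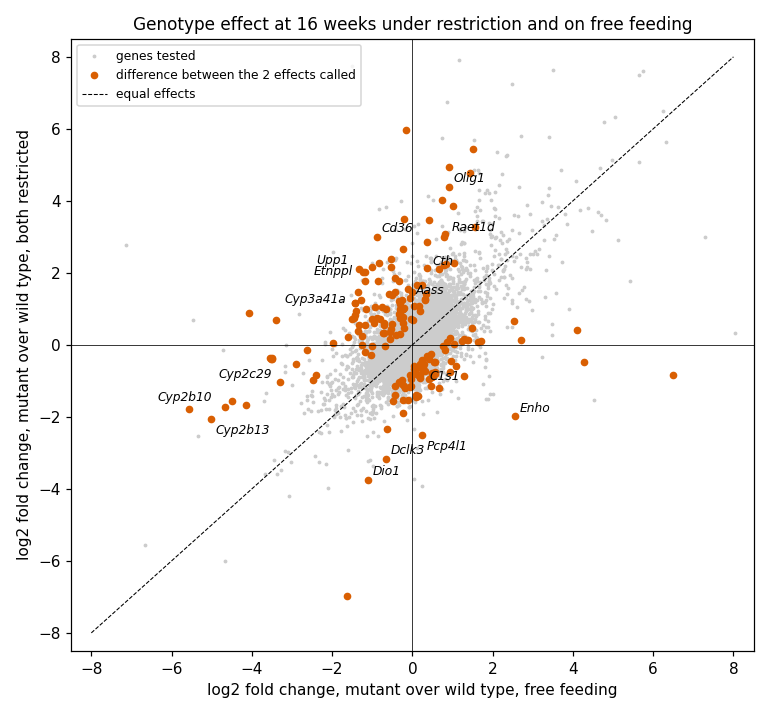
Log2 fold change of the mutant over the wild type under restriction (vertical) against that on free feeding at 16 weeks (horizontal) for the 12690 genes tested, with the 190 genes whose difference was called in orange and a dashed line where the effects are equal. Cd36 and Olig1 lie above the line, Enho and Pcp4l1 below it, and Cyp2b10 lies above the line with negative values on both axes.

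Long genes were called as lower more often than short ones. Of 1561 tested genes that span 100 kb or more, 102 were higher (6.53%) and 214 lower (13.7%), with a median log2 fold change of -0.17. Of 3203 genes under 10 kb 320 were higher (9.99%) and 208 lower (6.49%), with a median of 0.01. The slope of log2 CPM on the log10 of gene span, centred per gene, was -0.209, 0.0295, -0.0458 and -0.0485 in the mutant libraries and -0.0182, 0.0277, 0.0521 and 0.0306 in the wild-type libraries. Mutant replicate 1 had the lowest slope of all 8 libraries, and mutant replicate 2 lay among the wild-type values. The means were -0.0686 ± 0.101 in the mutant and 0.0231 ± 0.0296 in the wild type (SD, n = 4 each), a difference of -0.0916 with a two-sided exact permutation p of 0.0857, where 0.0286 is the smallest possible, and -0.0447 without mutant replicate 1.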

How the data were processed

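Liver polyA RNA was sequenced in 24 libraries, 6 groups of 4. The authors deposited raw counts per gene. Trimming with Trimmomatic 0.39, alignment to GRCm38.p6 with STAR 2.7.0f and counting with featureCounts (Subread 1.6.4) are credited to the submitters' processing notes. Annotation release, strand setting and handling of reads with several matches are not stated in those notes, so near-identical and antisense genes are uncertain. All 22429 gene IDs matched GENCODE M21, which gave symbols and positions.

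Counts were normalised by TMM and genes were filtered with filterByExpr, which left 12690. The quasi-likelihood test of edgeR 4.0.16 (R 4.3.3) was fitted to all 24 libraries with 1 mean per group (18 residual degrees of freedom), with Benjamini-Hochberg adjustment over all genes tested and a threshold of 0.05. The restricted and freely fed effects were compared by their contrast in the same fit. DESeq2 1.42.0 and other settings were alternatives. The fits were tested on simulated data. The slope on gene span used a pseudocount of 0.1 CPM and an exact permutation test, and the length column of the deposited table equals the annotated span for 97.79% of genes.

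The comparison, gene lists and anchors were chosen with earlier results of these data known. Genes were named by rule (the largest changes, the anchors and top calls of each list, and the largest diet differences). The largest changes and diet differences were taken only among genes whose restricted groups did not overlap. Further list members were named after their values were seen. Results of some genes that the rule or the lists hold are not reported here; they count in the totals of the lists but are not named in the figures. Fold changes of genes with almost no counts in a group are given as count ratios with 95% intervals that cover counting error only.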

Additional observations from a re-analysis of the deposited data

Results flagged for a closer look

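A single library stood far from the other 3 of its group, by Dixon's test, in 27 of 300 group values examined (9.0%), where chance gives about 5%, or 1 in 20 groups. In the mutant group, replicate 1 was apart for Asl at 1686 CPM, Bst2 at 145 CPM, Lhpp at 70.2 CPM, Cyp2b10 at 48.9 CPM, Dnase1l3 at 8.11 CPM and Mmp12 at 1.93 CPM. Mutant replicate 2 was apart for Gpt at 468 CPM, Clec4f at 123 CPM, Ahsa1 at 77.1 CPM, Gdf15 at 36.2 CPM, Crat at 35.1 CPM and Phlda3 at 5.31 CPM, and mutant replicate 3 for Wfdc2 at 0.467 CPM. In the wild-type group, replicate 1 was apart for Cyp3a41a at 540.4 CPM, Gstm2 at 132 CPM, Ctsc at 49.7 CPM, Stard4 at 19.9 CPM and Tinag at 0.0474 CPM. Wild-type replicate 2 was apart for Fabp1 at 3543 CPM, Bhlhe40 at 141 CPM, E2f8 at 44.3 CPM, C6 at 17.2 CPM and Dnah1 at 0.358 CPM. Wild-type replicate 3 was apart for Syvn1 at 283 CPM and Lrtm2 at 0.128 CPM, and wild-type replicate 4 for Mlxipl at 152 CPM and Mgll at 53.7 CPM. The wild-type values of Tinag and Lrtm2 rest on 1 and 2 reads in the whole group, so they do not show a library that stands apart. What sets the other libraries apart was not tested.

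The effect of genotype differed between restriction and free feeding, by edgeR's test of the difference itself, for Sqle and for 29 other genes named here. That of Sqle was more negative under restriction, and the 29 others follow. The differences, as the log2 fold change under restriction minus that on free feeding, were positive for Cd36 (3.89), Cyp2b10 (3.80), Olig1 (3.47), Upp1 (3.43), Cdc20 (3.29), Etnppl (3.25), Pparg (3.20), Cidec (3.17), Cyp2b9 (2.96), Cyp2b13 (2.95), Mogat1 (2.62), Cyp3a41a (2.59), Fitm1 (2.30), Raet1d (2.27), Cyp2c29 (2.26), Raet1e (2.20), Cth (1.78), Aass (1.66), Pnpla2 (1.54), Lhpp (1.49), Tdo2 (1.09), Oat (1.07) and Arg1 (0.76). Of these, Cyp2b9 lost its call in 8 and Tdo2 in 7 of 16 leave-one-out fits. The differences were negative for Enho (-4.53), Pcp4l1 (-2.76), Dio1 (-2.65), Dclk3 (-2.51), Slc22a27 (-1.11) and C1s1 (-0.88). In the fit to the 16 libraries of the 4 groups Arg1, Tdo2, Pnpla2, Raet1e and Dio1 lost their call. The freely fed mutant ate 2.3 g a day and the freely fed wild type 3.0 g, and the part of intake in these differences was not tested.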

How the results depend on the processing

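Of 2320 genes called in the restricted comparison, 2313 were also called with the same sign by DESeq2 (which called 2626) and 2228 with RLE size factors (2281). A fit to the 8 restricted libraries alone called 877 genes, 552 higher and 325 lower, of which 856 were shared with the reported calls. Both the number of libraries and their spread differ in that fit, and what lowered the count was not tested. Leaving out single restricted libraries gave 1804 to 2256 calls, 966 to 1201 higher and 838 to 1066 lower. Of the 2320 reported calls, 1743 to 1905 were kept with the same sign in these fits. For the difference between diets, DESeq2 called 389 genes, 249 more positive and 140 more negative, the fit to 16 libraries 126 and 35 more negative, and leave-one-out fits 109 to 225, with 69 to 132 more positive and 38 to 93 more negative. The span slope difference was -0.124 to -0.0447 when single libraries were left out. No named gene changed sign under any alternative run. Of 145 called genes named in the text, 133 kept the call in every leave-one-out fit, but part of them had been named for a small adjusted p. In the fit to the 8 libraries 127 kept it, 16 lost it and 2 were not tested.

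Deviations of same-numbered mutant and wild-type libraries correlated at 0.0746, 0.0488, 0.316 and -0.209, within the -0.341 to 0.430 of differently numbered ones. These values gave no sign that the replicate numbers pair the libraries. They cannot exclude it, since they are few and the deviations are taken within groups of 4. With the replicate number as a block 2336 genes were called, 1230 higher and 1106 lower, all 145 named genes kept their call, and 184 diet differences were called. The span slope with the block was -0.0916 (two-sided exact sign-flip p 0.25, over 4 pairs). Depth limits genes with almost no counts in a group, such as Ccnb1, to a bound or a ratio with a wide counting interval.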

Other observations

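Other lists held few calls. Of 11 tested genes linked to senescence and its secreted factors, 3 were higher and 0 lower. Mmp12, an elastase of macrophages, stood at 1.93, 3.11, 3.09 and 2.98 CPM in the mutant libraries, against 0, 0.287, 0.0642 and 0.507 CPM in the wild-type libraries (log2 fold change 3.74, edgeR adjusted p = 0.00153), and its log2 fold change was 4.68 without wild-type replicate 4. Cxcl1, a chemokine for neutrophils, rose by 2.16 (edgeR adjusted p = 0.0203), a call lost without wild-type replicate 1 or 4. Cxcl10, a chemokine that interferon induces, rose by 1.83 (edgeR adjusted p = 0.0312), with 1.17 and no call without mutant replicate 3, and no call without mutant replicate 4 or wild-type replicate 1 or 2. Without wild-type replicate 1 the list had 1 higher gene.

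Of 21 semaphorin, neuropilin and ephrin genes, 4 were lower and 0 higher. Beside Nrp2 and Ephb6 these were Sema4a, a membrane semaphorin, at -0.58 (edgeR adjusted p = 0.00221), and Nrp1, at -0.81 (edgeR adjusted p = 0.0121). Both lost the call in the fit to the 8 restricted libraries, and Nrp1 also without wild-type replicate 2 or 4. Of 19 genes of growth hormone and IGF1 signalling 3 were lower and 0 higher, and of 13 protein-coding genes of mitochondrial DNA 1 was lower and 0 were higher.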
